A study of Rattus norvegicus with 8 samples.

Results

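The expression of transcription factors that set regional and enterocyte identity in the gut was examined on 8 rat arrays: *Pdx1*, *Cdx1*, *Cdx2*, *Gata4*, *Gata6*, *Hnf4a* and *Hnf4g*. The members are every probe set annotated to 1 of these 7 genes and to no other gene. They are 10 of the 31099 probe sets on the array and stand for 6 of the 14217 genes that have a probe set of their own. *Hnf4g* was not analysed here, because no probe set was matched to its name. The genes were chosen by their known roles with earlier results from these same arrays in view. Every level and difference of theirs, on all 8 arrays, is therefore a description and carries no p.

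Epithelial cells were loosened from the proximal small intestine of female Wistar rats aged 4 months, and their RNA was hybridized to Affymetrix Rat Genome 230 2.0 arrays. The labels give 4 groups of 2 arrays: TW, tap water for 3 days; WR, water restriction for 12 h; DSW1200, deep sea water of hardness 1200 for 3 days; and SeW, selenium water for 3 days. The labels name no other treatment, and the number of rats behind each array is not given in them. The labels do not say that arrays of a group came from separate rats, so p-values below measure only the spread between arrays, which may be technical. With 2 arrays against 2, the smallest p of an exact permutation test is 0.333.

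In the developing and adult gut, these proteins bind DNA and fix which stretch of epithelium a cell belongs to. *Pdx1* is a homeodomain factor of the duodenum and the pancreas. *Cdx1* and *Cdx2* are homeodomain factors of the whole intestine, and *Cdx2* keeps the epithelium intestinal rather than gastric. *Gata4* and *Gata6* are zinc finger factors; *Gata4* is known for holding back the ileal programme in the proximal small intestine. *Hnf4a* and *Hnf4g* are nuclear receptors that switch on the absorptive genes of the enterocyte.

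*Pdx1* and *Cdx2* are neighbours on rat chromosome 12, and they are shown because their signals on the SeW arrays stood in different relation to TW. In RefSeq's GRCr8 annotation *Cdx2* lies at chr12:12762769-12769246 on the plus strand and *Pdx1* at chr12:12793957-12799156 on the minus strand. The ends of the transcripts face each other across 24710 bases, with 0 other genes listed between them. RefSeq's promoter windows of 300 bases, 250 before a transcript's start and 50 from it onward, are given 5′ to 3′ on the gene's own strand, chr12:12799107-12799406 for *Pdx1* and chr12:12762654-12762953 for *Cdx2*. The *Pdx1* window is set on the outermost start of the gene, and the *Cdx2* window on position 12762904, which lies 135 bases inside the gene as annotated. Capitals mark matches to the letters searched below.

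Pdx1: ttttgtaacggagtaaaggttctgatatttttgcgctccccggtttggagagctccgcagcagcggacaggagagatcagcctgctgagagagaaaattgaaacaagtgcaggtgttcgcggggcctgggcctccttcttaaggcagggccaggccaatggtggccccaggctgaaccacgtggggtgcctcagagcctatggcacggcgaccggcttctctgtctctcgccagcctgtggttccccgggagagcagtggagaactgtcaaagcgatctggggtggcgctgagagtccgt

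Cdx2: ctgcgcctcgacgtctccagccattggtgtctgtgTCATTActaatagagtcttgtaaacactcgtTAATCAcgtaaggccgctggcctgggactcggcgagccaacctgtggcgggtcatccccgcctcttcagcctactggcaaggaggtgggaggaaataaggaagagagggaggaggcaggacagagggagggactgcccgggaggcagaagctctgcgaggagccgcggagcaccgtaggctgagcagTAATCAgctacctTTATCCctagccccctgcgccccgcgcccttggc

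These windows were searched on both strands for NGATAA (bound by GATA factors), TTTATNG (CDX factors), CAAAGTNCA (HNF4), GTTAATNAT (HNF1) and TAATNA, the core letters of many homeodomain factors. Every match to the HNF1 letters is also a match to the homeodomain letters. The *Pdx1* window held 0 matches. The *Cdx2* window held 1 GATA match, TTATCC, which begins 16 bases downstream of position 12762904, and 3 homeodomain matches. Of 33469 rat promoter windows of the same length, 26.4% held a GATA match, 11.3% a CDX match, 1.24% an HNF4 match, 0.747% an HNF1 match and 28.0% a homeodomain match. A match is a string of letters, not a measured site. The other members lie at chr18:56742970-56761299 (*Cdx1*), chr15:41635572-41707252 (*Gata4*), chr18:2460909-2492322 (*Gata6*), chr3:172606220-172667758 (*Hnf4a*) and chr2:99792942-99943811 (*Hnf4g*).

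Values are signals after quantile normalization, which gives all arrays the same distribution. The probe set with the highest mean stands for its gene, and 9258 genes whose mean passed the median of all probe sets, a signal of 6.69, were tested. All 6 measured members passed this filter, which does not depend on the group. Signals of different probe sets are not set against each other, since probes differ in how brightly they bind. The deposited arrays differed in brightness, with medians from 4.30 to 11.1 and both SeW arrays highest. The 3′/5′ signal ratio of beta-actin, which is higher where transcripts are broken or incompletely copied, ran from 10.9 to 32.8 and was lowest on both SeW arrays, at a mean of 12.3 against 22.3 in TW. Both values separate SeW from the other groups, and their part in the results was not tested beyond the alternative scalings and the covariate given below. TW replicate 1 correlated better on average with the arrays of other groups (0.929) than with TW replicate 2 (0.907).

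*Pdx1* was the member whose groups stood furthest apart, and its signal was lowest in SeW. Its signal was 395 and 356 on the TW arrays. It read 286 and 318 on the WR arrays, 440 and 444 on the DSW1200 arrays and only 116 and 159 on the SeW arrays. After quantile normalization the groups ran in the order DSW1200, TW, WR and SeW, and no group overlapped its neighbour. In the values as deposited WR (-0.01) and DSW1200 (0.28) both overlapped TW, and with arrays scaled to the same median DSW1200 (0.16) did. Mean signal was 375.5 ± 27.5 for TW, 302 ± 22.8 for WR, 442 ± 2.50 for DSW1200 and 138 ± 30.7 for SeW (SD, n = 2 each). On the log2 scale SeW lay 1.47 below TW, a difference of -1.47 ± 0.18 (SE), or 2.76-fold. Against DSW1200 the difference was -1.70 ± 0.18, or 3.25-fold. WR differed from TW by -0.31 ± 0.18 and DSW1200 from TW by 0.24 ± 0.18, both near the size of their errors. In RNA from many cells, fewer cells that express a gene and less of its RNA per cell cannot be told apart.

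**Figure D1:**
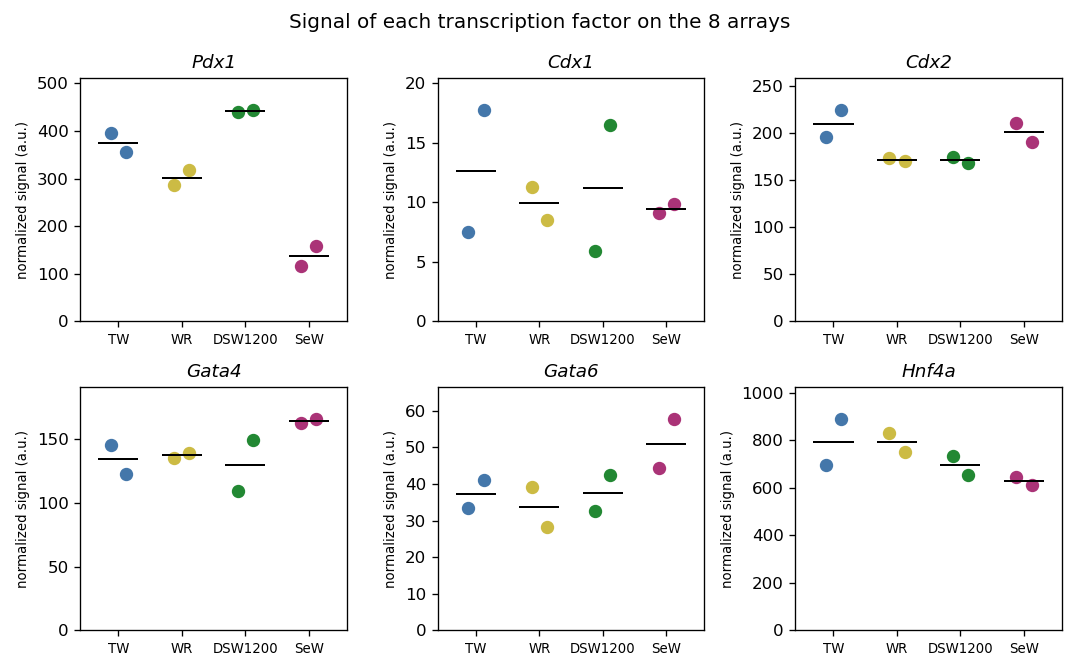
Normalized signal (arbitrary units, linear axis from 0, its own scale in each panel) of the brightest probe set of 6 transcription factors, by group. Points are single arrays and lines are means of 2; the *Pdx1* points of SeW, 116 and 159, lie below all points of the other 3 groups, and those of *Cdx1* overlap in every pair of neighbouring groups.

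*Cdx2*, the neighbour of *Pdx1* and the main intestinal homeodomain factor, did not share its low level in SeW. The TW arrays read 195 and 224 and the SeW arrays 210 and 191, with 173 and 170 for WR and 174 and 167 for DSW1200. The SeW arrays overlapped those of TW, with a log2 difference of -0.06 ± 0.16. The WR and DSW1200 arrays lay below both TW arrays, by -0.29 ± 0.16 in each comparison. In the values as deposited WR overlapped TW, at 0.05, and with arrays scaled to the same median DSW1200 overlapped it, at -0.38. Against DSW1200, SeW was 0.23 ± 0.16 higher, without overlap. *Cdx1*, its paralogue, was close to the filter, with signals from 5.91 to 17.7. Its groups overlapped throughout, and its log2 differences from TW were between -0.29 and -0.22 with an SE of 0.61, so that a difference of the size seen for *Cdx2* was not detectable at this signal.

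*Gata4* and *Gata6* had their highest brightest-probe-set signals in SeW. The *Gata4* signal was 163 and 166 on the SeW arrays, against 145.5 and 123 for TW, 136 and 139 for WR and 109.7 and 149.8 for DSW1200. Both SeW arrays were above the arrays of all other groups, and the log2 difference was 0.30 ± 0.20 from TW and 0.36 ± 0.20 from DSW1200. The other 3 groups overlapped each other. A second *Gata4* probe set did not follow this pattern: it read 11.6 and 11.7 in TW and 5.69 and 9.13 in SeW, a log2 difference of -0.69, and lower in SeW without overlap, though it overlapped as deposited (0.16). That probe set was close to the filter, and the *Gata4* direction therefore rests on 1 of 2 probe sets.

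For *Gata6*, which is expressed along the whole epithelium including its crypts, the brightest probe set read 44.4 and 57.7 on the SeW arrays. It read 33.4 and 41.1 for TW, 39.1 and 28.2 for WR, and 32.6 and 42.4 for DSW1200. Both SeW arrays were again the highest, by 0.45 ± 0.27 over TW and 0.44 ± 0.27 over DSW1200 on the log2 scale. TW, WR and DSW1200 overlapped. The second *Gata6* probe set, with signals from 4.85 to 15.8, overlapped between SeW and TW, with a log2 difference of -0.17. Against DSW1200 it was lower in SeW by -0.64 without overlap, opposite to the brightest one; as deposited it overlapped (0.12).

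*Hnf4a*, the enterocyte nuclear receptor, differed from TW in SeW by less than *Pdx1* did. Its brightest probe set read 647 and 614 on the SeW arrays, and 696 and 889 for TW, 832 and 749.7 for WR, and 735 and 654 for DSW1200. Both SeW arrays were below all others, with a log2 difference of -0.32 ± 0.16 from TW and -0.14 ± 0.16 from DSW1200. WR overlapped TW, at 0.01 ± 0.16, and DSW1200 overlapped it too, at -0.18 ± 0.16. A second *Hnf4a* probe set read 18.5 and 17.2 in TW and 11.2 and 10.5 in SeW, a log2 difference of -0.72 in the same direction. As deposited it overlapped (0.22). In WR it was lower than TW by -0.76 without overlap, unlike the brightest one, and as deposited it overlapped (-0.23). A further one, below the filter, ranged from 1.28 to 10.4 with no order of groups.

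**Figure D2:**
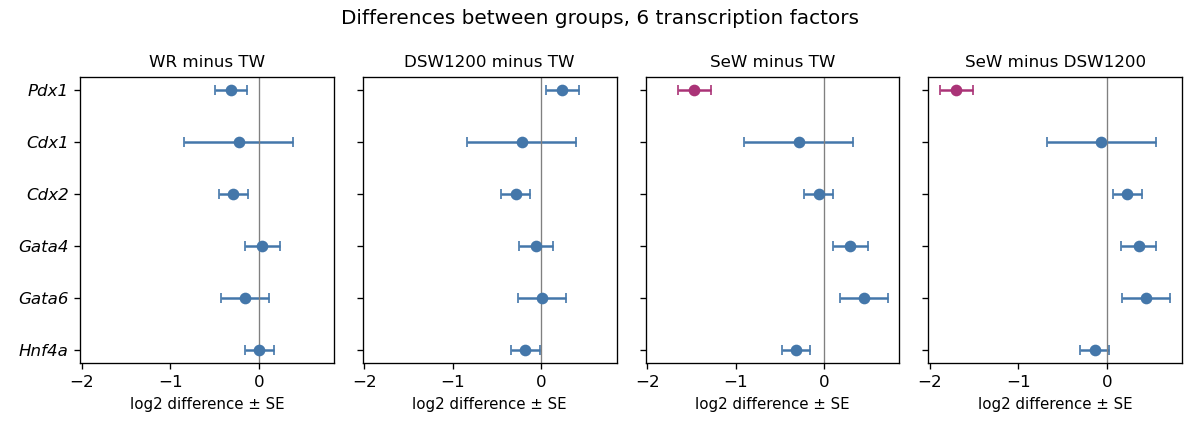
Log2 difference ± SE (limma, 4 residual degrees of freedom) of 6 transcription factors in 4 comparisons of 2 arrays against 2. *Pdx1* in SeW, at -1.47 against TW and -1.70 against DSW1200, is the largest difference drawn; the other points lie between -0.32 and 0.45.

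Counts over the 6 measured genes are given beside those over all tested genes, and nothing is read from them because these arrays chose the members. "Called" means an adjusted p under 0.05 in limma over all tested genes. Between WR and TW, 0 of 6 members were called beside 0.0108% of tested genes, and 2 of 6 did not overlap beside 39.7%. Between DSW1200 and TW the counts were 0 of 6 beside 0% and 2 of 6 beside 35.9%. Between SeW and TW they were 1 of 6, *Pdx1*, beside 1.91%, and 4 of 6 beside 51.2%. Between SeW and DSW1200 they were 1 of 6, again *Pdx1*, beside 2.72%, and 5 of 6 beside 53.9%. The median log2 difference of the 6 genes was -0.19 for WR, -0.12 for DSW1200 and -0.18 for SeW, each against TW, with medians over all tested genes of -0.01, -0.02 and -0.04. Between SeW and DSW1200 it was 0.08, with -0.04 over all genes. The 3 comparisons with TW share its 2 arrays, and both SeW comparisons share the SeW arrays.

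The direction of *Cdx1*, *Cdx2* and *Hnf4a* in SeW against TW turned with the scaling of the arrays, and that of *Pdx1* and of the brightest probe sets of *Gata4* and *Gata6* did not. In the values as deposited, where the median tested gene was 0.92 higher in SeW than in TW on the log2 scale, *Pdx1* was lower by -0.52 without overlap. *Cdx1*, *Cdx2*, *Gata4*, *Gata6* and *Hnf4a* were all higher without overlap, by 0.58 (*Cdx1*), 0.90 (*Cdx2*), 1.27 (*Gata4*), 1.44 (*Gata6*) and 0.64 (*Hnf4a*). Of these, *Cdx1*, *Cdx2* and *Hnf4a* were below the median tested gene. As deposited 4390 genes were called higher in SeW, so nothing is read from this lack of overlap. The share of all tested genes without overlap was not counted as deposited or with median scaling. With arrays scaled to the same median, *Pdx1* was at -1.37, *Gata4* at 0.42 and *Gata6* at 0.59, again without overlap, while *Cdx2* was at 0.05 and *Hnf4a* at -0.21. *Pdx1* was the only one of the 10 probe sets below TW under all 3 scalings. Over all 11 alternative settings *Gata4* ran from -0.20 to 1.27 and *Gata6* from -0.47 to 1.44 in SeW against TW. Each kept its sign in 10 of the 11: *Gata4* turned with averaged probe sets and *Gata6* with the beta-actin covariate. Against DSW1200 *Gata4* ran from -0.09 to 1.27 and *Gata6* from -1.17 to 1.35, each with its sign kept in 9. There both turned with averaged probe sets and with the covariate.

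**Figure D3:**
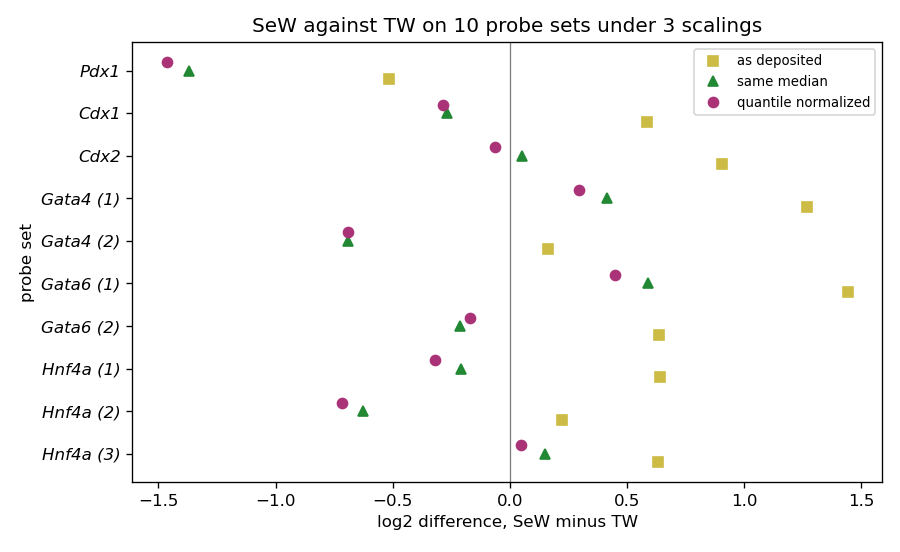
Log2 difference of SeW from TW for the 10 probe sets of 6 genes under 3 scalings of the arrays; numbers in brackets order the probe sets of a gene from brightest to dimmest. All 3 *Pdx1* marks, from -1.47 to -0.52, are left of the zero line, and the squares (values as deposited) of the 9 other probe sets are right of it.

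A ratio of 2 deposited signals on the same array does not depend on how that array was scaled. The log2 ratio of *Pdx1* to *Cdx2* was -0.86 and -0.28 on the SeW arrays, against 0.99 and 0.71 for TW, 0.70 and 0.87 for WR and 1.37 and 1.41 for DSW1200. Both SeW arrays lay below the other 6 for this ratio and for those to *Hnf4a*, *Gata4*, *Gata6* and *Cdx1*. The SeW mean was below the TW mean by -1.16 (to *Hnf4a*), -1.42 (to *Cdx2*), -1.79 (to *Gata4*), -1.96 (to *Gata6*) and -1.10 (to *Cdx1*). These ratios describe unequal differences between *Pdx1* and each other member. They share the *Pdx1* values, which were in view when the members were chosen, so they are no separate support. A ratio removes only the brightness of an array, and the part of RNA quality in these ratios was not tested.

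**Figure D4:**
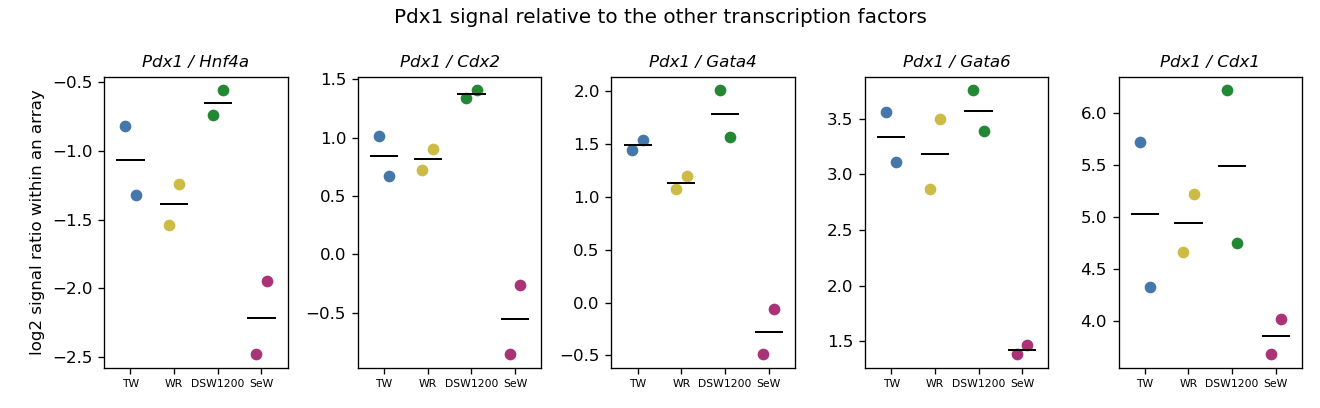
Log2 ratio of the normalized *Pdx1* signal to that of each other transcription factor on the same array (own scale in each panel). Points are arrays and lines are means of 2; in each panel both SeW points lie below the 6 points of TW, WR and DSW1200, for example -0.86 and -0.26 for *Pdx1* / *Cdx2*.

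The SeW minus TW difference of *Pdx1* was negative in 11 alternative settings and in 8 fits that each left out 1 array. Its call, from which nothing is read, was absent between SeW and TW in the values as deposited, with median scaling, without the filter, without the intensity trend, with the beta-actin ratio as a covariate, or without SeW replicate 1 (-1.24) or SeW replicate 2 (-1.69). Between SeW and DSW1200 it was absent without the intensity trend or with the covariate.

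By the likeness of log2 values over the 8 arrays, the 2 tested genes closest to *Pdx1* were *Gdi2*, a regulator of Rab proteins (Pearson's r 0.987), and *Gadd45gip1*, of the mitochondrial ribosome (0.973). For *Cdx2* they were *Inpp5d* (0.963) and *Msra* (0.959), for *Cdx1* *Prcc* (0.968) and *Timm22* (0.951), and for *Hnf4a* *Ralb* (0.972) and *Chmp2b* (0.970). For *Gata4* they were *Mbd6* (0.980) and *Ube2e3* (0.964), and for *Gata6* *Xkr8* (0.977) and *Tbc1d1* (0.948). No member was among the 2 closest genes of another. Each value is the highest or second highest over all other tested genes on the same 8 arrays and is given as a description.

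Lists of partner factors, targets and cell type genes were set beside the members. They too were chosen with earlier results of these data known. Their limma p-values are therefore a description, not independent tests. Of 28 other epithelial transcription factors, such as the HNF1, FOXA and KLF families, 14 were tested: 7 were higher and 7 lower in SeW than in TW, with a median of 0.04. None passed limma's adjusted p of 0.05, while 5 had an unadjusted p under 0.05. The largest difference was that of *Elf3*, an epithelial ETS factor, which read 522 and 703 in TW and 355 and 284 in SeW (-0.93 ± 0.21, adjusted p = 0.0535). *Tfcp2l1* differed by -0.73 (adjusted p = 0.131) and *Tcf7l2*, the Wnt effector, by -0.62 (adjusted p = 0.167). The next GATA paralogue, *Gata5*, read 32.4 and 53.1 in TW and 45.5 and 58.6 in SeW, overlapping groups.

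HNF4 targets were listed for lipid uptake and other enterocyte functions. Of 14 tested, 9 were higher and 5 lower in SeW than in TW, with a median of 0.17; with arrays scaled to the same median the counts turned to 4 higher and 10 lower, with a median of -0.18. By limma 0 passed the adjusted test and 4 had an unadjusted p under 0.05. *Maf* differed by 1.07 (adjusted p = 0.0868), *Apob*, the carrier protein of chylomicrons, by 0.57 (adjusted p = 0.0598) and *Apoc2* by -0.54 (adjusted p = 0.113). The *Maf* difference was not particular to SeW: WR lay above TW by 1.08 and DSW1200 by 1.06, with the TW arrays at 708 and 347. Between SeW and DSW1200 *Maf* differed by 0.0028.

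Of 12 tested CDX targets, a list that includes *Cdx1* itself, 10 were higher and 2 lower in SeW than in TW, with a median of 0.24; under median scaling 6 were higher and 6 lower. By limma 2 passed and rose. *Abcb1a*, the efflux pump P-glycoprotein, rose from 33.2 and 23.9 in TW to 235 and 250.4 in SeW (3.11 ± 0.34, adjusted p = 0.00974). *Si*, the disaccharidase sucrase-isomaltase, rose from 3160 and 2046 in TW to 6297 and 5225 in SeW (1.17 ± 0.23, adjusted p = 0.0379). *Vdr*, the vitamin D receptor, differed by 0.87 (adjusted p = 0.228). *Abcb1a* rose against DSW1200 too (3.27, adjusted p = 0.00536).

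Genes of the proximal and distal intestine were listed too. Of 14 proximal genes 11 were tested, 6 higher and 5 lower in SeW than in TW, with a median of 0.19 (-0.21 under median scaling). *Abcg5*, which with *Abcg8* exports sterols from the enterocyte, passed limma's test and rose from 26.8 and 19.0 to 73.3 and 130.1 (2.12 ± 0.42, adjusted p = 0.0397); its partner *Abcg8* differed by 1.52 (adjusted p = 0.0855) and the hormone gene *Sct* by -0.60 (adjusted p = 0.179). Of 14 distal genes 6 were tested, 3 in each direction with a median of -0.01. The ileal genes *Fabp6* and *Fgf19* and the hormone *Pyy* were dim. Other genes of the list were not: the TW mean was 1384 for *Slc51a*, 1027 for *Slc26a3* and 589 for *Amn*. It was 36.4 for the ileal bile acid transporter *Slc10a2*. *Cubn*, the receptor for vitamin B12 bound to intrinsic factor, fell from 33.3 and 32.1 in TW to 9.41 and 12.4 in SeW (-1.60 ± 0.33, adjusted p = 0.0430 in limma). *Slc26a3* differed by 0.89 (adjusted p = 0.150) and *Amn*, the partner of *Cubn*, by -0.48 (adjusted p = 0.202).

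**Figure D5:**
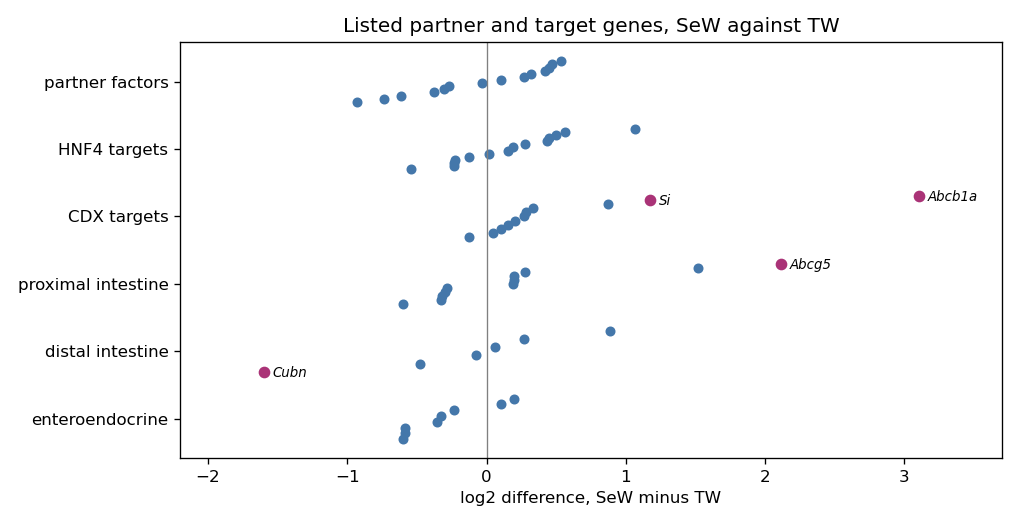
Log2 difference of SeW from TW for tested genes of 6 lists, 1 point a gene, ordered by size within a list. Named points passed an adjusted p of 0.05 in limma: *Abcb1a* (3.11), *Abcg5* (2.12) and *Si* (1.17) to the right and *Cubn* (-1.60) to the left; no partner factor, HNF4 target or enteroendocrine gene passed, and the members are left out.

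These calls depended on the setting and on single arrays. *Si* was not called under median scaling (0.71), and *Cubn* neither as deposited (-0.67) nor under median scaling (-1.53). With an offset of 32 added before log2 the size was 1.26 for *Abcg5*, 2.19 for *Abcb1a* and -0.59 for *Cubn*. None of the 4 was called without the filter or without the intensity trend. With the beta-actin covariate *Abcg5*, *Si* and *Cubn* were not called, while *Abcb1a* was called against TW but not against DSW1200. Without SeW replicate 1 or SeW replicate 2, none of *Abcb1a*, *Abcg5*, *Si* and *Cubn* was called between SeW and TW, and without SeW replicate 2 *Abcb1a* was not called against DSW1200. *Abcg5* and *Si* were also lost with TW replicate 2 or 1 WR array left out, and *Cubn* with any 1 of the TW or WR arrays left out. Each kept its direction in all 19 refits. In the values as deposited the median of every list was above 0 in SeW against TW, beside 0.92 over all tested genes.

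*Pdx1* is also made in pancreas and in some endocrine cells, so genes of those cells were checked. Of 16 pancreas genes 10 were dim, among them the islet genes *Ins2*, *Iapp* and *Gcg* and the acinar factor *Ptf1a*. The islet gene *Ins1* passed the filter, at 26.05 and 17.05 in TW, 17.15 and 18.24 in SeW and 3.03 and 10.55 in DSW1200. Of the 6 tested, 5 were lower and 1 higher in SeW than in TW, with a median of -0.87, and 0 passed by limma at an adjusted or unadjusted p of 0.05. *Cel* differed by -1.52, *Prss1* by -1.48 and *Cpb1* by -1.25. Their summed signal was 96.8 and 84.2 on the SeW arrays, 183 and 61.8 for TW, 111 and 353 for WR and 85.2 and 169.7 for DSW1200. It was highest on a WR array and overlapped between TW and SeW. Of 8 tested enteroendocrine genes 6 were lower and 2 higher in SeW, with a median of -0.34, which was 0.62 in the values as deposited. By limma 0 passed and 3 had an unadjusted p under 0.05; *Sct* differed by -0.60, *Sst* (somatostatin) by -0.58 and *Ghrl* (ghrelin) by -0.58. Their summed signal was 1455 and 1602 in TW and 1373 and 1130 in SeW. The defining factor *Neurog3* was dim. The part of pancreatic and endocrine cells in the *Pdx1* difference was not tested.

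Other cell types were followed as lists. Of 23 tested enterocyte genes 20 were higher in SeW than in TW, with a median of 0.23 (14 higher under median scaling), and 3 passed by limma and rose: *Si*, *Enpep* (0.84, adjusted p = 0.0286) and *Mme* (0.77, adjusted p = 0.0437), both brush border peptidases. *Enpep* and *Mme* were not called under median scaling or with any 1 of the SeW arrays, the WR arrays or TW replicate 2 left out, nor *Mme* with DSW1200 replicate 2 left out. Neither was called with the beta-actin covariate. The summed enterocyte signal was 48130 and 51773 in TW and 59129 and 61923 in SeW. *Hnf4a* was at its lowest in SeW only after quantile normalization. As deposited it was 0.64 above TW without overlap, and with median scaling it overlapped TW (-0.21). Of 8 crypt genes 7 were higher in SeW, with a median of 0.86, and by limma 0 passed while 4 had an unadjusted p under 0.05. Those tested were *Mki67*, *Top2a*, *Pcna*, *Mcm2*, *Mcm6* and *Ccnb1*, all genes of dividing cells, with *Smoc2* and *Axin2*. *Axin2* was the 1 lower in SeW, by -0.52. The stem cell genes *Lgr5* and *Ascl2* were dim, so the list does not measure the number of crypt cells. Crypt genes were also higher than TW in 7 of 8 cases in WR (median 0.86) and in DSW1200 (median 0.30). Of 9 secretory genes 3 were higher and 6 lower in SeW. *Defa24*, a Paneth cell defensin, passed and rose in SeW (2.13, limma adjusted p = 0.0166). It was not called with the beta-actin covariate or with 1 SeW array left out, whichever it was. *Spink4* differed by 2.08 (limma adjusted p = 0.0598).

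Of 12 stomach genes 8 were dim and 2 tested (*Tff1*, 0.06, and *Sox2*, 0.35), and 0 passed at an adjusted or unadjusted p of 0.05. The gastric genes *Gkn1* and *Gkn2* were highest on TW replicate 2, at 59.0 and 38.6, against 4.95 and 0.575 on TW replicate 1. They read 25.35 and 20.96 on DSW1200 replicate 1, and 11.45 and 0.7125 on DSW1200 replicate 2. On the WR and SeW arrays they read between 0.25 and 4.0125. Lymphocyte genes were lower in SeW than in TW in 7 of 8 cases (median -0.32), myeloid genes in 9 of 10 (-0.30), and mesenchyme genes were higher in 10 of 13 (0.27). By limma 0 of them passed, and 3, 2 and 1 in that order had an unadjusted p under 0.05. Mesenchyme genes were also higher than TW in 12 of 13 cases in WR (median 0.56) and in DSW1200 (median 0.39). Against DSW1200, *Gzma* fell by 1.28 (limma adjusted p = 0.0204) and *Gzmb* by 1.18 (limma adjusted p = 0.0325) in SeW. Both are granzymes of cytotoxic lymphocytes. Neither was called in the values as deposited, under median scaling or with the beta-actin covariate. Neither was called with any 1 of the SeW or DSW1200 arrays left out, nor *Gzmb* with 1 WR array left out. The part of these cells in the differences of the members was not tested.

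In WR and DSW1200 the lists gave 1 call in all. Between WR and TW *Defa24* rose from 31.0 and 51.6 to 367 and 502 (3.42 ± 0.32, adjusted p = 0.00934 in limma) and was the only gene called among 9258; without WR replicate 1 or WR replicate 2 it was not called. Between DSW1200 and TW 0 genes were called by limma, 733 had an unadjusted p under 0.05, and the smallest adjusted p on any list was 0.504. Of the 14 tested HNF4 targets 3 were higher than TW in WR, *Fabp1* was at 0 and the rest were lower (median -0.24). As deposited 7 were higher and 7 lower (median 0.05). In DSW1200 9 of 14 read lower than TW (median -0.08), and 7 of 14 as deposited (median 0.01). Under median scaling 12 of 14 read lower in WR and 10 of 14 in DSW1200. By limma 0 of them passed, while 4 in WR and 1 in DSW1200 had an unadjusted p under 0.05.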

How the data were processed

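The authors deposited linear signal intensities, 1 per probe set and array, made with MAS5 according to the submitters' processing notes; its version and scaling target are not given in the sources used here. The study's methods state quantile normalization, but the deposited intensities have different medians, so the 8 arrays were quantile normalized over all 31099 probe sets, floored at 1 and log2 transformed. At the floor lay 0.0810% of tested values. Genes were named from the platform annotation, updated by Entrez number: 20826 probe sets have 1 symbol, 436 several and 9837 none. The brightest probe set stood for a gene, and 9258 genes with a mean signal over 6.69 were tested; others are called dim. Limma 3.58.1 in R 4.3.3 fitted 1 model of 4 groups (4 residual degrees of freedom, intensity trend, Benjamini-Hochberg over tested genes). The number of arrays limits the precision; the median SE was 0.264. Genes named are the members, list genes past adjusted p 0.05 or among the 3 with the largest SeW minus TW difference, and the 2 genes most alike to each member. Not all of these are named. *Gata5*, *Gkn1*, *Gkn2*, *Ins1*, *Slc10a2*, *Slc51a* and dim marker genes were named after their values were seen. So were *Fabp1*, *Axin2*, *Mcm2*, *Mki67*, *Pcna* and *Smoc2*. Promoters are from RefSeq (GRCr8), matched by symbol for 5 of 7 genes. Members and lists were chosen with earlier results of these data known. Alternatives were the values as deposited, median scaling, no filter, a stricter filter, an offset of 32, averaged probe sets, every probe set, no intensity trend, a replicate block, only the 4 arrays compared, each array left out and, added after seeing the data, a beta-actin 3′/5′ covariate.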

Additional observations from a re-analysis of the deposited data

How the results depend on the processing

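The *Pdx1* difference kept its sign in SeW under every alternative run, from -1.50 to -0.52 against TW and from -1.77 to -0.80 against DSW1200, and with 1 array left out from -1.69 to -1.24 and from -1.92 to -1.48. The median of the 6 members was less stable (SD between arrays 0.11). Between WR and TW it was 0.27 as deposited and -0.080 with the offset. Between DSW1200 and TW it was 0.0027 with averaged probe sets and 0.20 with the beta-actin covariate. Between SeW and TW it was 0.77 as deposited, -0.064 with the stricter filter, -0.29 over every probe set and -0.44 with the covariate. Between SeW and DSW1200 it was 0.96 as deposited, 0.23 both with median scaling and with the stricter filter, -0.095 with averaged probe sets, -0.14 over every probe set and -0.74 with the covariate. With 1 array left out it ran from -0.28 to -0.0025 in WR minus TW, -0.25 to 0.18 in DSW1200 minus TW, -0.33 to 0.11 in SeW minus TW and 0.041 to 0.39 in SeW minus DSW1200. The cause of these shifts was not tested.

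List genes called were 1 between WR and TW, and 0 without the filter or the trend. Between SeW and TW they were 7, and 63 as deposited, 4 with median scaling, 0 without the filter, 3 with averaged probe sets, 0 without the trend, 4 with the replicate block, 1 with the covariate and 1 with only the 4 arrays compared. Between SeW and DSW1200 they were 4, and 49 as deposited, 0 without the filter, 7 with the stricter filter, 7 with the offset, 7 over every probe set, 0 without the trend, 0 with the covariate and 9 with only the 4 arrays compared. With 1 array left out the counts ran from 0 to 6 (WR minus TW), 0 to 3 (DSW1200 minus TW), 0 to 14 (SeW minus TW) and 0 to 12 (SeW minus DSW1200). Over all genes 177 were called between SeW and TW, 74 higher and 103 lower, but 4390 higher and 5 lower as deposited and 35 higher and 7 lower with median scaling. Between SeW and DSW1200 the split was 116 higher and 136 lower, 3733 and 7 as deposited, and 52 and 18 with median scaling. Replicate numbers did not pair arrays: the deviations of same-numbered arrays correlated between -0.06 and 0.04. Only 1 probe set measures *Pdx1*, and *Cdx1* and the second probe sets of *Gata4*, *Gata6* and *Hnf4a* were near the filter.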
